A study of Mus musculus with 19 samples.

Results

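GATA3 and Bcl11b are zinc-finger transcription factors of T cells, and the regions described here are promoter GATA3 peaks that overlapped no listed Bcl11b peak. They are the GATA3 chromatin immunoprecipitation peaks of late wild-type T helper 2 (Th2) cells that overlapped no Bcl11b peak and no input peak by 1 bp or more, and whose distance to the closest transcription start, in the authors' list, was at most 1000 bp. The rule found 1224 of 28612 GATA3 peaks (4.28%). The same limits gave 1302 GATA3 promoter peaks that overlap a Bcl11b peak, and 1413 GATA3 peaks (4.94%) were set aside because they overlap an input peak. The 1224 peaks lie closest to 1174 genes, of which 48 had 2 such peaks and 1 had 3. RNA values were found for 1128 of these genes, and 53 of the genes also had a promoter peak shared with Bcl11b. Since these peaks were chosen on the presence of one set of peaks and the absence of another, both of them measured once, the missing overlap is a description and not a tested absence of Bcl11b.

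The study compared Th2 cells with and without Bcl11b or Gata3, at an early and a late stage, by RNA sequencing of 16 libraries, with 2 libraries in each of 8 groups. The 3 chromatin libraries (anti-GATA3, anti-Bcl11b and input, 1 each) came from late wild-type Th2 cells, so no peak has a replicate check. In the Bcl11b experiment naive CD4 T cells of Bcl11b fl/fl-CreERT2 mice were used for wild-type (WT) and knockout (KO) cultures alike. The early cultures were kept under Th2 conditions for 4 days, with 4-OHT, the drug that activates the Cre recombinase, for KO and without it for WT. The late cultures were kept for 4 days in Th2 culture, rested for 1 day in IL-2 and then returned to Th2 medium for 4 days, in which the KO cultures received 4-OHT. WT and KO therefore differ in the drug as well as in the deletion, and these cannot be told apart. For the Gata3 experiment the labels give early or late and WT or KO, while the allele, the way of deletion and the culture were not found in the sources used here. Nothing in the labels says whether the 2 libraries of a group came from separate mice, so the p-values cover only the spread between the libraries, which may be technical.

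GATA3 binds short sequences around the core GATA and directs CD4 T cells into the Th2 program, in which the cytokines interleukin (IL) 4, IL-5 and IL-13 are made. It also represses genes of the T helper 1 (Th1) program, which centres on interferon-gamma. Bcl11b is needed for T cell commitment, can occupy the same regions as GATA3, and can act with repressive chromatin complexes. A factor bound at a promoter can raise transcription, lower it or leave it as it is, and many T cell genes are controlled from distant enhancers.

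To show what these promoters hold, 8 of them are printed, each with the 250 bases before the RefSeq transcription start (build GRCm38.p6), or the part of those bases that the peak covers, 5′ to 3′ on the strand of the gene. Capitals mark GATA words, which are AGATAA or TGATAA or AGATAG or TGATAG, and their reverse complements on the other strand. The first 6 were chosen among promoters that hold a word inside the peak, as strong peaks or as genes that the RNA results turn on, and the last 2 are cytokine promoters of the RNA results that hold none. The windows are chr1:40429320-40429569 (+) for Il1rl1, the receptor of IL-33, chr11:110398852-110399101 (+) for Map2k6, a kinase of the p38 pathway, chr9:58133825-58134074 (+) for Stra6, a retinol transporter, chr1:80213945-80214194 (-) for Fam124b, chr6:129507166-129507415 (-) for Olr1, a receptor of oxidized lipoprotein, chr9:44980432-44980681 (-) for Cd3g, a chain of the T cell receptor complex, chr3:37232637-37232886 (-) for Il21, and chr11:53618675-53618915 (-) for Il4.
Il1rl1: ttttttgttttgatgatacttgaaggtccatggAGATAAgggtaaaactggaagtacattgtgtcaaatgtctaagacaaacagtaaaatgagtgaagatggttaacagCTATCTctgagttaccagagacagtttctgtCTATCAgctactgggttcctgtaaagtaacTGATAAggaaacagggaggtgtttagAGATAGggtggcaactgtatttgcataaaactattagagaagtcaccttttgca
Map2k6: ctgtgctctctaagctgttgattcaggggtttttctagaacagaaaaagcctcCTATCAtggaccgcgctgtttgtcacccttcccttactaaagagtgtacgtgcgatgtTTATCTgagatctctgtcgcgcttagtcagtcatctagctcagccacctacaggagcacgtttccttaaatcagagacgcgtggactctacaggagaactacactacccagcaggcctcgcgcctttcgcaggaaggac
Stra6: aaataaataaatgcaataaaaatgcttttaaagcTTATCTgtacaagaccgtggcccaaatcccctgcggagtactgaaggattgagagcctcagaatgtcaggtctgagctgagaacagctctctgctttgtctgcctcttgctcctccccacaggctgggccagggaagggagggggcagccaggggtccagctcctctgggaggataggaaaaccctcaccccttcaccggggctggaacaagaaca
Fam124b: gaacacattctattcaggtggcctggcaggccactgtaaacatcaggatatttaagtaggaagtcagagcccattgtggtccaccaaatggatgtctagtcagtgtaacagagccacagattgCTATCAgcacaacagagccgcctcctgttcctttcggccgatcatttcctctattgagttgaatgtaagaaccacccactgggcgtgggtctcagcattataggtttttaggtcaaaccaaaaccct
Olr1: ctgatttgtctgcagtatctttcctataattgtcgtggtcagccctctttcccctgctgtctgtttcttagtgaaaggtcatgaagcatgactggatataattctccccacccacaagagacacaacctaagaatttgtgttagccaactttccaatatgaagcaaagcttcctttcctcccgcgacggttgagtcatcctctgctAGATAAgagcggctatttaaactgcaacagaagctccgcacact
Cd3g: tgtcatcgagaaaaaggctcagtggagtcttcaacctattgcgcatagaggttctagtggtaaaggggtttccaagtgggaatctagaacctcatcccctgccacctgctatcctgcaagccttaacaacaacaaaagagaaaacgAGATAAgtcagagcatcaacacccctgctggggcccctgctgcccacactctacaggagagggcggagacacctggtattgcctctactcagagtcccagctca
Il21: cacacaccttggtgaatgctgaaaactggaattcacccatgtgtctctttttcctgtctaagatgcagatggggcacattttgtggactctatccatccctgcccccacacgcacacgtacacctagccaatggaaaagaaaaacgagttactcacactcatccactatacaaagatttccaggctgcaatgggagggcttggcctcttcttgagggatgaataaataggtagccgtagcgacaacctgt
Il4: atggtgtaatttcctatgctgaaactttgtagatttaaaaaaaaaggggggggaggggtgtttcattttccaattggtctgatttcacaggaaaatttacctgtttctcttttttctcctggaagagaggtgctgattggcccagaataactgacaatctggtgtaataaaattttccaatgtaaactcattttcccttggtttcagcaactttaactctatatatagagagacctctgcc
The Il1rl1 promoter holds 5 words, that of Map2k6 holds 2, and those of Stra6, Fam124b, Olr1 and Cd3g hold 1 each. The 250 bases of the Il21 promoter and the 241 bases of the Il4 promoter that lie in the peak hold no such word, which says only that these letters are not in these windows.

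GATA words stood more often in promoter windows that the peak covered than in windows that it left out. Of 865 RefSeq windows of 300 bases (250 before to 50 after a start) matched to these peaks, 267 had at least 150 bases inside the peak, and 125 of them (46.8%) held a GATA word on either strand. Among the 520 windows with no base inside the peak, 112 (21.5%) held one. Over all 865 matched windows 255 (29.5%) held one. For promoter peaks shared with Bcl11b the shares were 145 of 442 (32.8%) inside and 62 of 396 (15.7%) outside, and 9773 of all 32817 RefSeq windows (29.8%) held a word. Covered windows of the GATA3 promoter peaks without Bcl11b had a median GC content of 54.0% and a median ratio of observed to expected CpG of 0.613, against 58.5% and 0.792 in the shared ones and 52.7% and 0.383 over all windows. The 520 windows with no base inside the peak without Bcl11b had 59.3% and 0.712. The ETS word CCGGAA stood in 24.0% of covered windows without Bcl11b, 34.6% of shared ones and 14.9% of all, and the SP/KLF word GGGCGG in 42.7%, 57.7% and 35.6%. The AP-1 words TGACTCA and TGAGTCA were found in 8.24%, 5.66% and 5.20%. These shares are descriptions without a test, and base composition differed between the groups of windows along with the words.

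Before the RNA results, the libraries and the deleted genes were checked. Reads assigned to genes ranged from 5117526 to 9892746 in the Gata3 experiment and from 4687552 to 14577958 in the Bcl11b experiment. In the Gata3 experiment the early and late WT libraries of the same number were closer to each other than the replicates of a group were: over genes with at least 50 reads in a pair, the mean chi-square per gene was 4.50 for WT replicate 1 early against late and 2.63 for WT replicate 2, against 13.8 and 14.6 between the 2 early and the 2 late WT replicates. Late against early WT gave 0 of 10601 genes at an adjusted p under 0.05 (edgeR quasi-likelihood test), with 128 at an unadjusted p under 0.05, where the Bcl11b experiment gave 4529 of 10873. The early and late Gata3 comparisons thus rest on nearly the same control values, and they are set side by side but not counted as 2 independent observations. In the Bcl11b experiment the 2 early WT libraries stood apart, with 3.78 and 4.87 reads per kb over 1458 sensory receptor transcripts, genes that T cells do not use, against at most 0.507 in the other 14 libraries. Their T cell markers summed to 292 and 404 RPKM (reads scaled to transcript length and library total), against 1040 to 1780 in the other 6 libraries of that experiment.

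Gata3 itself was at 1178 and 1280 CPM (TMM-scaled counts relative to the library total) in early WT and 425 and 419 CPM in early KO, a log2 fold change of -1.54 ± 0.11 (SE; adjusted p = 5.8e-06). In the late stage the WT libraries had 1382 and 1327 CPM and the KO libraries 1090 and 954 CPM, -0.41 ± 0.11 (adjusted p = 0.0361). The late call was lost in 7 of 16 alternatives, among them leaving out late WT replicate 1 (adjusted p = 0.175), late WT replicate 2 (0.131), late KO replicate 2 (0.138), early KO replicate 1 (0.0742) or early KO replicate 2 (0.0709). Most Gata3 reads thus remained in the libraries labelled late KO, and whether they come from a shortened transcript was not tested. Bcl11b was at 126 and 128 CPM in early WT and 66.5 and 54.2 CPM in early KO of its own experiment (-1.08, adjusted p = 0.0232). That difference became 0.05 on log2(RPKM + 1), and the call was lost without early WT replicate 1 (0.0522) or early KO replicate 2 (0.0849). In the late stage the 2 WT libraries had 140 and 181 CPM and the 2 KO libraries 75.6 and 137 CPM (-0.59, adjusted p = 0.421).

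Most GATA3 promoter peaks without Bcl11b were narrow and low. The median peak was 487 bp wide (quartiles 388 and 617 bp), held 14 reads (quartiles 10 and 21, range 8 to 90) and had a fold enrichment of 2.10 (quartiles 1.63 and 3.13, range 0.90 to 19.33) with a false discovery rate of 0.685%, all as the authors' peak caller gave them. Of the 1224 peaks, 668 held under 15 reads, 552 (45.1%) had a fold enrichment under 2, and 109 (8.91%) had one of 5 or more. The shared promoter peaks had a median of 17 reads and a fold of 1.96, distal GATA3 peaks without Bcl11b 12 reads and 3.08, and distal shared peaks 25 reads and 3.62. Promoter peaks of either kind thus had the lower fold, and the peaks shared with Bcl11b held more reads and were wider.

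**Figure D1:**
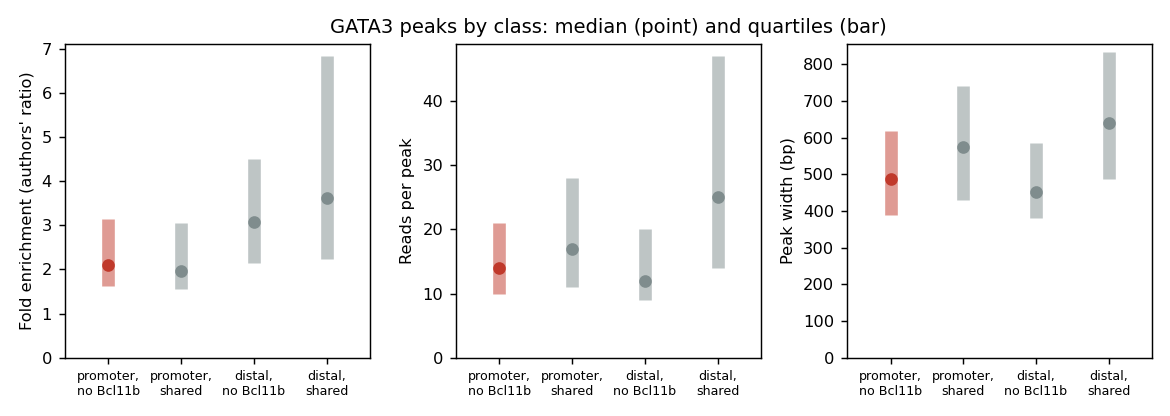
Fold enrichment, reads per peak and width in bp of the GATA3 peaks in 4 classes, each as the median (point) with the quartiles (bar), without replicates. The promoter peaks without Bcl11b (red) had a median fold of 2.10, 14 reads and 487 bp, and distal shared peaks had 3.62, 25 reads and 640 bp.

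The summits lay on both sides of the start, 620 upstream and 604 downstream, and 356 (29.1%) lay within 250 bp of the start. The authors' distance to the start, which is not measured from the summit, had a median of 508 bp. It had a median of 375 bp for the shared promoter peaks. The peak covered the start at 381 (31.1%) of the promoters without Bcl11b and at 554 (42.6%) of the shared ones. The nearest Bcl11b peak was at a median gap of 14800 bp (quartiles 2742 and 45040 bp) from the promoter peaks without Bcl11b. Of these 1224 peaks, 195 (15.9%) had a Bcl11b peak within 500 bp, and 708 (57.8%) had none within 10000 bp. Of the 1174 genes, 653 (55.6%) also had distal GATA3 peaks, and 287 (24.4%) had distal peaks shared with Bcl11b. At 122 peaks (9.97%) a second RefSeq gene started on the opposite strand within 1000 bp, so the gene named by the authors need not be the only one with that promoter.

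**Figure D2:**
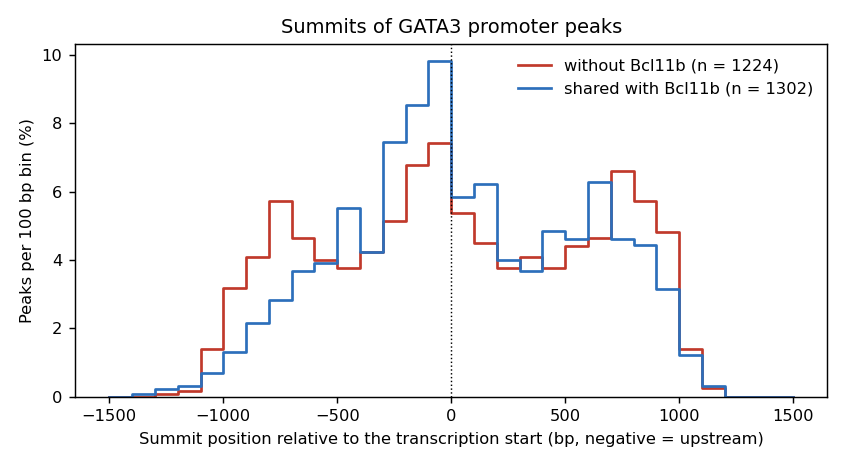
Position of the peak summit relative to the transcription start in bp (negative is upstream), as the percent of peaks in bins of 100 bp, for promoter peaks without Bcl11b and for those shared with Bcl11b. Within 250 bp of the start lay 29.1% of the summits without Bcl11b and 36.5% of the shared ones.

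The peaks with the largest fold enrichment stood at genes of varied function. Edn1, which encodes the vessel-constricting peptide endothelin, had the largest, 19.33 with 53 reads (chr13:42300366-42301142, 721 bp from the start). Fcer2a, the low-affinity IgE receptor CD23, had 18.17 with 47 reads (chr8:3691373-3692098), and Piwil4, a protein of the small-RNA pathway of germ cells, had 15.34 with 72 reads (chr9:14739372-14740092). Cetn1 (15.23), Mir7007 (14.41), Celf2 (14.29), Kcnj8 (12.89), P2ry10 (12.53), Spag4 (12.1), Mir1931 (11.51), Stra6 (11.22, chr9:58133699-58134410, 60 reads) and Ppp2r3a (11.08) followed. The most reads were at Map2k6 (90), Gabarap (89), an autophagy gene, Dapp1 (79), Btg2 (78), an antiproliferative gene, Fam124b (77) and Cd3e (75, chr9:45009949-45010886), the epsilon chain of the T cell receptor complex. Just inside the limit were the peaks of Piwil4 and Lrrc42 at 1000 bp, the latter with 10 reads and a fold of 2.07, and just outside it those of Tgfbr3l at 1003 bp (8 reads, 3.01) and Slc7a5 at 1004 bp (12 reads, 1.10).

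The genes of these promoters spanned the whole range of expression. In late WT libraries of the Gata3 experiment their median was 4.11 RPKM (quartiles 0.504 and 14.4), 346 (30.7%) were under 1 RPKM and 64 were over 100 RPKM. Genes with only a shared promoter peak had a median of 9.52 RPKM with 11.4% under 1 RPKM, those with only distal GATA3 peaks 1.5 RPKM, and those with no GATA3 peak 0.0108 RPKM. Among named genes, leaving aside the unnamed gene models Gm5506 (1433 and 1111 RPKM) and Gm9846 (464 and 471 RPKM), the highest were Rplp1, a ribosomal stalk protein whose reads may be split with near-identical copies (1455 and 1539 RPKM), Cox6a1 of the respiratory chain (655 and 565 RPKM), Lcp1, an actin-bundling protein of blood cells (422 and 456 RPKM), Cd3g (397 and 352 RPKM), Cst7 (360 and 349 RPKM) and S100a6, a calcium-binding protein (279 and 401 RPKM).

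The question of the Gata3 comparison is which of these genes had other RNA levels without Gata3. In the early stage 336 of the 833 genes that passed the filter on low values (1 RPKM or more in 2 or more libraries of the experiment) were called at an adjusted p under 0.05 (40.3%), where 30.7% of all 10601 genes tested were called. Of these, 148 rose in KO and 188 fell, with a background of 14.0% higher and 16.8% lower. The call rested in part on the number of libraries: 221 (26.9%, with 19.4% of all genes) were called without early KO replicate 1 and 212 (25.8%, with 18.5%) without early KO replicate 2. In the late stage 177 of 833 were called (21.2%), where 14.0% of all genes were called. Of these, 99 rose and 78 fell, with a background of 8.44% higher and 5.59% lower. That number was 114 (13.7%, with 8.48% of all genes) without late WT replicate 1 and 110 (13.3%, with 7.71%) without late WT replicate 2. The median log2 fold change was -0.02 early and 0.02 late, against 0.00 for all genes in each, on the TMM scale that centres all genes near 0. Fewer cells of a type and less RNA per cell cannot be told apart in these bulk libraries, here and below.

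The share called varied among the promoters themselves. Of genes whose peak had a fold enrichment under 2, 140 of 407 (34.4%) were called in early Gata3 KO, against 162 of 365 (44.4%) between 2 and 5 and 34 of 61 (55.7%) at 5 or more. The late shares were 17.2%, 22.2% and 42.6%. Where the gene had no GATA3 peak of another class, 94 of 342 (27.5%) were called early and 42 (12.3%) late, under the 30.7% and 14.0% of all genes tested. Further promoter peaks without Bcl11b and peaks that overlap an input peak were not counted as another class. Where GATA3 peaks of another class were listed for the same gene, 242 of 491 (49.3%) and 135 (27.5%) were called. Genes with only a shared promoter peak were called at 34.0% early and 15.8% late, those with only distal GATA3 peaks at 36.2% and 18.2%, and those with none at 23.3% and 8.55%. The splits by fold and by other peaks were added after the calls were seen and have no test.

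**Figure D3:**
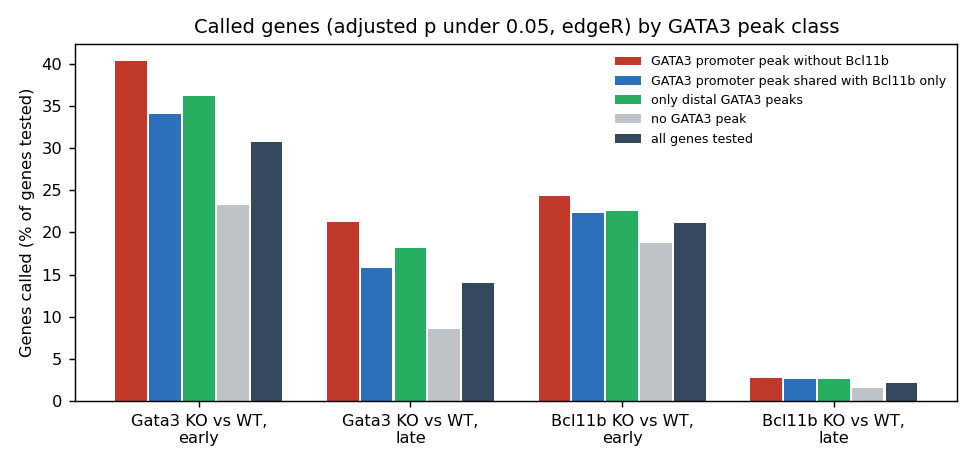
Percent of tested genes called at an adjusted p under 0.05 (edgeR) in the 4 KO comparisons, for genes with a GATA3 promoter peak without Bcl11b (red), with only a shared promoter peak, with only distal GATA3 peaks, with none, and for all genes tested. In early Gata3 KO the shares were 40.3%, 34.0%, 36.2%, 23.3% and 30.7%.

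Of the 4 genes of the Th2 list with such a promoter, Il1rl1, Il5 and Il4 fell and Il31 rose in early Gata3 KO, and in the late stage 2 fell and 1 rose. Il1rl1, the IL-33 receptor that marks Th2 cells, had a promoter peak at chr1:40428795-40429815 with 37 reads and a fold of 3.18, and its strongest peak was a distal one 2102 bp from the start with 97 reads and a fold of 17.44. It was at 887 and 1008 CPM in early WT and 6.28 and 3.55 CPM in early KO (-7.58 ± 0.40, adjusted p = 8.71e-07), and at 994 and 1080 CPM in late WT and 53.4 and 23.7 CPM in late KO (-4.79 ± 0.34, adjusted p = 2.55e-05). All KO libraries lay far under all WT libraries at both stages. Il1rl1 also had 6 distal GATA3 peaks shared with Bcl11b. Il5, the eosinophil growth cytokine (peak chr11:53719570-53720259, 22 reads, fold 2.84), went from 393 and 311 CPM to 5.20 and 1.37 CPM early (-6.72, adjusted p = 1.73e-06) and from 436 and 289 CPM to 2.94 and 1.93 CPM late (-7.29 ± 0.44, adjusted p = 1.37e-05). Its KO levels were as low late as early. The strongest GATA3 peak of Il5 was a distal one shared with Bcl11b, with 39 reads and a fold of 6.79.

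Il4, the cytokine that drives Th2 differentiation itself, behaved differently between the stages. Its promoter peak without Bcl11b was low (chr11:53618675-53619233, 13 reads, fold 2.04) and stood 391 bp from the nearest Bcl11b peak, while a second promoter peak of Il4, shared with Bcl11b, had 197 reads and a fold of 11.11 (chr11:53617095-53618505). Il4 was at 200 and 232 CPM in early WT and 3.14 and 2.17 CPM in early KO (-6.33 ± 0.32, adjusted p = 7.5e-07). In the late stage it was at 180 and 252 CPM in WT and 96.9 and 155 CPM in KO (-0.77, adjusted p = 0.0509). The test of the difference between stages gave 5.56 (adjusted p = 5.75e-05), and since the WT levels of the stages were nearly the same, it reflects largely how far the late KO libraries lay above the early ones. The fourth Th2 gene with such a promoter, Il31, the itch cytokine, had 3 reads in early WT and 27 in early KO, a ratio of 7.69 with a 95% counting interval of 2.37 to 39.6, and its call (adjusted p = 0.0132) was lost without early WT replicate 2 (0.0878). In the whole list of Th2 cytokines and regulators, 21 of 27 tested genes fell and 3 rose early, with a median of -2.27, and 12 fell and 4 rose late, with a median of -0.41. Summed Th2 markers were 1100 to 1130 RPKM in early WT, 96.1 to 97.7 RPKM in early KO, 1150 to 1180 RPKM in late WT and 347 to 390 RPKM in late KO.

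Among the further genes that fell early in Gata3 KO were Il21, Inhba, Icos, Slc17a6, Tpbg and Bcam. Il21, a cytokine of follicular helper and other CD4 cells, had 2 such peaks (50 reads, fold 2.67, and 8 reads, fold 2.16) and went from 53.3 and 75.5 CPM to 1.62 and 1.14 CPM (-5.52). In the late stage Il21 overlapped between the groups, with 44.4 and 71.3 CPM in WT and 42.1 and 49.2 CPM in KO (-0.33, adjusted p = 0.411). Inhba, the activin A subunit (28 reads, fold 6.32, beside 18 distal peaks without Bcl11b and 3 with it), went from 92.4 and 87.7 CPM to 1.19 and 1.14 CPM early (-6.25 ± 0.18). Its late values were 78.3 and 75.1 CPM in WT and 110 and 97.4 CPM in KO, where the call of a rise of 0.43 (adjusted p = 0.0311) was lost in 9 of 16 alternatives, with adjusted p of 0.115 without late WT replicate 1, 0.172 without late WT replicate 2, 0.123 without late KO replicate 1, 0.0576 without early KO replicate 1 and 0.0605 without early KO replicate 2. Icos, the costimulatory receptor of activated T cells, had 2 such peaks beside 10 distal ones without and 4 with Bcl11b, and fell from 610 and 585 CPM to 139 and 151 CPM early (-2.04 ± 0.15). Slc17a6, a glutamate transporter, fell at both stages, from 105 and 91.4 CPM to 0.650 and 0.458 CPM early (-7.43) and from 114 and 105 CPM to 38.8 and 27.7 CPM late (-1.74, adjusted p = 0.000143). Tpbg went from 32.3 and 50.7 CPM to 0.325 and 0.343 CPM early (-6.90), and Bcam, a laminin receptor whose promoter peak is its only GATA3 peak, from 24.1 and 30.1 CPM to 0.650 and 0.572 CPM (-5.44). Neither Tpbg nor Bcam passed the test late (-0.60 and -0.10). The strongest GATA3 peak of Slc17a6 was a distal one shared with Bcl11b, with 131 reads and a fold of 10.9.

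Stra6, which carries retinol into cells, was lower in KO early and higher late. It had 1 of the strongest promoter peaks and no other GATA3 peak. Levels were 81.9 and 94.7 CPM in early WT and 11.0 and 3.66 CPM in early KO (-3.57, adjusted p = 3.22e-05), and 69.3 and 80.4 CPM in late WT and 656 and 527 CPM in late KO (2.98 ± 0.29, adjusted p = 0.000164). The WT libraries thus lay between the early and the late KO libraries, and the stage difference was 6.55.

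Another set of promoters belonged to genes that were low in Gata3 KO at both stages. Cldnd1, a claudin-like membrane protein (14 reads, fold 3.58, beside a second promoter peak shared with Bcl11b), went from 586 and 614 CPM to 71.1 and 75.1 CPM early (-3.04 ± 0.12) and from 640 and 641 CPM to 91.8 and 109 CPM late (-2.67 ± 0.12, adjusted p = 2.42e-06). Zcchc10, a zinc-knuckle protein (18 reads, fold 2.75, 44 bp from the nearest Bcl11b peak), went from 231 and 220 CPM to 35.4 and 35.0 CPM early (-2.68) and from 220 and 226 CPM to 43.7 and 40.6 CPM late (-2.41). Bace2, an aspartyl protease, fell by 4.15 early and by 3.2 late on the log2 scale. Zpbp2, which also had a promoter peak shared with Bcl11b, fell by 3.66 and 3.08. Furin, the proprotein convertase, was at 350 and 301 CPM in early WT, 102 and 98.2 CPM in early KO, 381 and 294 CPM in late WT and 55.0 and 90.7 CPM in late KO (-1.70 and -2.20). In each of these 5 genes the KO libraries lay under the WT libraries at both stages, and the calls were kept in every alternative run. Arg1, the arginine-degrading enzyme of the urea cycle, had a promoter peak of 11 reads with a fold of 4.83 and fell by 5.48 early. Olr1, at low levels, had 80 reads in early WT and 1 in early KO, a ratio of 93.6 with a 95% counting interval of 16.3 to 3740.

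**Figure D4:**
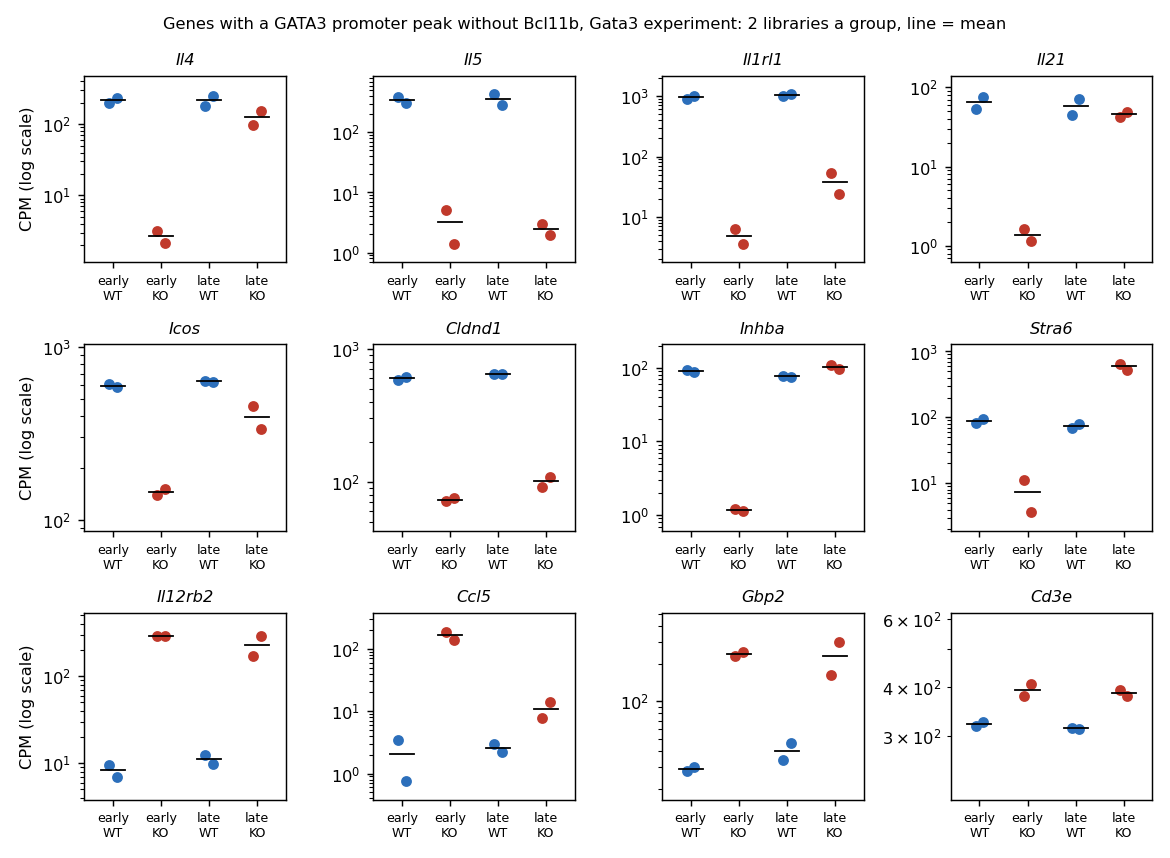
CPM on a log scale in each of the 8 libraries of the Gata3 experiment (points; blue WT, red KO; the line is the mean of 2) for 12 genes with a GATA3 promoter peak without Bcl11b. Il5, Il1rl1 and Cldnd1 were low in all KO libraries, Il4 and Il21 were far lower in early KO than in late KO libraries, Stra6 was low early and high late, and Il12rb2, Ccl5 and Gbp2 were higher in KO.

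Genes of the Th1 and cytotoxic programs with such a promoter rose in Gata3 KO. Il12rb2, the IL-12 receptor chain whose loss marks Th2 commitment, had 2 low promoter peaks (8 reads, fold 2.51, and 10 reads, fold 1.58). Beside these, Il12rb2 had 8 distal GATA3 peaks without Bcl11b. It was at 9.62 and 6.89 CPM in early WT and 290 and 290 CPM in early KO (5.14 ± 0.29), and at 12.5 and 9.86 CPM in late WT and 170 and 293 CPM in late KO (4.38 ± 0.27), with calls kept in every alternative run. Ccl5, the chemokine RANTES (8 reads, fold 1.58), went from 3.39 and 0.752 CPM to 189 and 140 CPM early (6.33), and from 2.93 and 2.25 CPM to 7.83 and 14.2 CPM late (2.14, adjusted p = 0.0109). The late call of Ccl5 was lost without late WT replicate 2 (adjusted p = 0.0649) or late KO replicate 2 (0.112). Cd244, a receptor of natural killer and cytotoxic T cells, had 0.542 and 0 CPM in early WT and 19.4 and 11.9 CPM in early KO (adjusted p = 0.000318), and did not pass the test late (-1.07). Of the whole list of cytotoxic, Th1 and natural killer receptor genes, 23 of 28 rose and 3 fell early, and 13 rose and 3 fell late.

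Interferon response genes formed the other group that rose. Gbp2, a guanylate-binding protein of cell defence (10 reads, fold 1.45, its only GATA3 peak), went from 27.5 and 29.7 CPM to 232 and 250 CPM early (3.08) and from 33.9 and 46.1 CPM to 162 and 301 CPM late (2.54). Gbp3 rose by 2.50 early and 1.82 late. The Gbp genes form a family of close copies, so reads may be split among them. In the whole list 30 of 30 genes rose early with a median of 2.82, and 18 rose and 1 fell late with a median of 0.91. The rises of Gbp2 and Gbp3 thus stood within a list that rose as a whole, of which 12 genes had no GATA3 peak.

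Among called genes with at least 5 RPKM in the higher group and groups that do not overlap, the largest early rises were at Serpina3f, a protease inhibitor, and Ifi203, an interferon-inducible gene, each from a family with near-identical copies. Serpina3f was at 3.80 and 0.752 CPM in early WT, 568 and 601 CPM in early KO (8.03), 1.99 and 1.71 CPM in late WT and 20.6 and 68.0 CPM in late KO (4.62). Ifi203 was at 0.542 and 0.376 CPM in early WT, 81.7 and 110 CPM in early KO (7.67), 1.68 and 1.18 CPM in late WT and 12.5 and 10.6 CPM in late KO (2.99). For each of them the promoter peak was the only GATA3 peak. Lax1, an adaptor that dampens antigen receptor signalling (53 reads, fold 4.80, its only GATA3 peak), went from 4.47 and 4.76 CPM to 111 and 139 CPM early (4.75). Card6 rose by 3.47 and 3.06, Trat1, an adaptor of the T cell receptor, by 2.34 and 2.14, and Tmem163 by 1.76 and 2.88. Tgm2, a transglutaminase, was at 311 and 99.98 CPM in late WT and 2511 and 1352 CPM in late KO (3.23, adjusted p = 0.00791), and did not pass the test early (0.74). P2ry14, a receptor of UDP-sugars, rose early (1.71) and fell late, from 20.2 and 17.0 CPM to 8.81 and 6.79 CPM (-1.29, adjusted p = 0.0127). That late call was lost without late WT replicate 1 (0.0637) or late KO replicate 2 (0.109).

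Of the 6 T cell receptor signalling genes with these promoters, 1 rose and 2 fell early, and 2 fell late. Cd3e, with 75 reads at its promoter, had a log2 fold change of 0.29 early (adjusted p = 0.0506) and 0.30 late (adjusted p = 0.0764), and Cd3g and Cd247 were not called at either stage. Ubash3a, a phosphatase that limits receptor signalling, fell by 0.76 early and by 1.12 late. Of 36 list members, 12 rose and 10 fell early, and 7 rose and 7 fell late. Among cytokine receptor and JAK-STAT genes Il10rb rose by 0.68 early and Stat5b by 0.53 late (adjusted p = 0.00988, and 0.0803 without late WT replicate 1), where 14 of 37 rose and 7 fell early, and 12 rose and 3 fell late.

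Of the 5 T cell transcription factors with such a promoter, 2 rose and 2 fell early. Myb, a factor of T cell progenitors and dividing cells, fell from 89.9 and 105 CPM to 27.4 and 31.9 CPM early (-1.72), while Tcf12 (1.26) and Ikzf1 (0.73) rose. None of the 5 T cell factors with such a promoter was called late, where 6 of 43 in the list rose and 6 fell. Dnmt3a, a DNA methyltransferase, fell by 0.78 late. In the housekeeping lists such a promoter stood at 2 of 46 ribosomal protein genes, 1 of 26 translation factors and 2 of 33 respiration genes. It stood at 2 of 36 splicing genes and 0 of 34 proteasome genes. Over all genes with RNA values the number was 1128 of 22878, and these shares were not tested. Of the ribosomal genes 20 of 46 fell and none rose early, and both with such a promoter, Rplp1 and Rps4x, were among the 20. Rps4x (-0.46) lost its call without early WT replicate 2 (adjusted p = 0.0599), early KO replicate 1 (0.0719) or early KO replicate 2 (0.0741).

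The effect of Gata3 loss differed between the stages at 129 of 833 genes (15.5%), with a background of 12.2% of all genes tested, and the late effect was the more positive at 81 of them and the more negative at 48, with a background of 7.74% and 4.47%. That number was 82 (9.98%, with 7.06% of all genes) without early KO replicate 1 and 73 (8.88%, with 6.21%) without early KO replicate 2. It was 242 (29.1%, with a background of 24.0%) when the same-numbered early and late WT libraries were summed and used as 1 pair of controls for both stages, which turns the test into late against early KO. Beside the cytokines above, Tpbg (6.30), Slc17a6 (5.69) and Bcam (5.33) were among the genes whose early fall was smaller or absent late.

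Markers of other cell types were low in the Gata3 experiment. Summed B cell markers were at most 1.73 RPKM in every library, with Ms4a1 and Pax5 at 0 in all 8, and macrophage and dendritic cell markers ranged from 5.22 to 11.8 RPKM over the 4 groups. Mast cell and basophil markers were 0.263 to 0.529 RPKM in early WT and 4.57 to 5.21 RPKM in early KO, of which Cma1 gave 3.14 and 4.07 RPKM as its lower and higher value, with Mcpt8 and Kit each under 1 RPKM and Fcer1a, Ms4a2, Mcpt4 and Tpsb2 at 0 in all 8 libraries. Summed T cell markers were 1510 to 1690 RPKM in early WT and 1680 to 1700 RPKM in early KO. The part of these differences in the results above was not tested.

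The Bcl11b comparison asks how the RNA of the genes of these promoters stood when Bcl11b rather than Gata3 was deleted. Their GATA3 peaks overlapped no listed Bcl11b peak, which does not make the promoters free of Bcl11b peaks. Of the GATA3 peaks, 195 (15.9%) had a Bcl11b peak within 500 bp, and 53 genes also had a shared promoter peak. In the early Bcl11b experiment 206 of 846 genes with such a promoter were called (24.3%), with a background of 21.1% over 10873 genes. Of these, 108 rose and 98 fell, with a background of 11.0% higher and 10.1% lower. The early WT libraries stand apart, and the scale matters: on log2(RPKM + 1), which uses the deposited RPKM, the median of all genes moved to 0.86. On that scale 506 of the 846 genes with such a promoter were called up and 24 down. Together these were 62.6%, where 63.4% of all genes were called. Early directions here are therefore relative to the median gene of the TMM-scaled counts. In the late stage 23 of 846 were called (2.72%), with a background of 2.22%. Of these, 19 rose and 4 fell, with a background of 1.69% higher and 0.524% lower. The late number was 4 without late WT replicate 1 or late KO replicate 1, 5 without late WT replicate 2 or late KO replicate 2, and 47 without either early WT replicate, where 0.176% to 0.325% of all genes were called without 1 of the late libraries and 4.57% to 4.65% without 1 of the early WT libraries. Genes with only a shared promoter peak were called at 22.3% early and 2.69% late, close to the 24.3% and 2.72% above, which was not tested. These sets do not separate genes with and without Bcl11b peaks. Beside the 53 genes with a shared promoter peak, 287 of the 1174 genes (24.4%) had distal peaks shared with Bcl11b.

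The late changes that held in every alternative run were rises of 4 genes. S100a6, a calcium-binding protein whose promoter peak is its only GATA3 peak, was at 57.0 and 50.9 CPM in early WT, 1238 and 1138 CPM in early KO (4.46, adjusted p = 2.42e-06), 640 and 525 CPM in late WT and 3327 and 2776 CPM in late KO (2.39, adjusted p = 0.000144). Ccl5 was at 21.4 and 15.5 CPM in early WT, 233 and 183 CPM in early KO (3.49), 3.78 and 4.33 CPM in late WT and 76.9 and 46.4 CPM in late KO (3.92, adjusted p = 0.000462). Cd244 was at 4.19 and 3.77 CPM in early WT, 17.4 and 26.1 CPM in early KO (2.45), 0.140 and 0.361 CPM in late WT and 21.6 and 22.6 CPM in late KO (6.40, adjusted p = 0.000897). Ctsd, the lysosomal protease cathepsin D, rose by 1.66 early and went from 301 and 335 CPM to 1126 and 1195 CPM late (1.87, adjusted p = 0.000725). In all 4 genes both KO libraries lay above both WT libraries at each stage. Ccl5 and Cd244 thus were high in KO in the Bcl11b experiment at both stages and in early Gata3 KO.

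**Figure D5:**
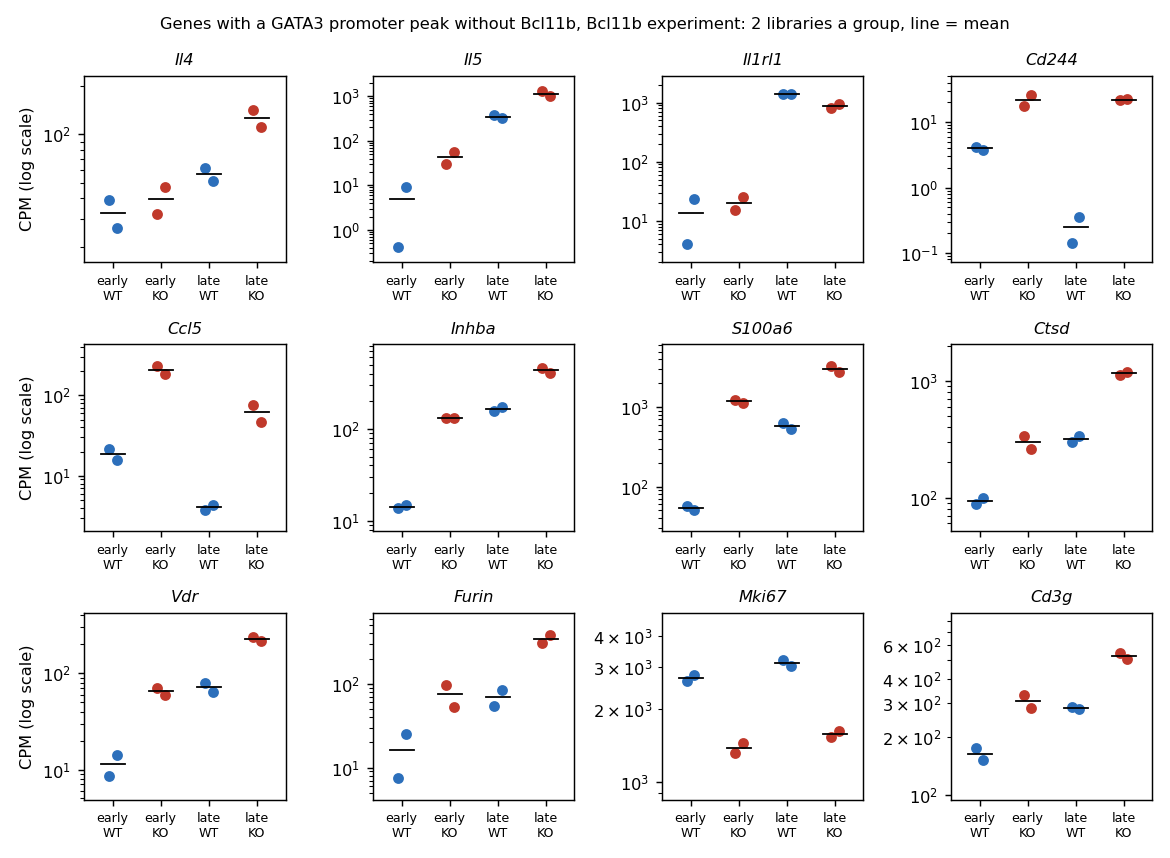
CPM on a log scale in each of the 8 libraries of the Bcl11b experiment (points; blue WT, red KO; the line is the mean of 2) for 12 genes with a GATA3 promoter peak without Bcl11b. S100a6, Ccl5, Cd244 and Ctsd were higher in both KO libraries than in both WT libraries at each stage, and Mki67 was lower. Il1rl1 was at 1416 and 1398 CPM in late WT and 822 and 937 CPM in late KO, a difference that was not called.

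Further genes rose in early Bcl11b KO. Inhba went from 13.8 and 14.7 CPM to 130 and 133 CPM early (3.2), and from 158 and 174 CPM to 463 and 405 CPM late (1.39, adjusted p = 0.00355), a late call lost without late WT replicate 1 (adjusted p = 0.0791), late WT replicate 2 (0.0501) or late KO replicate 1 (0.0775). Tnfsf4, the OX40 ligand, rose by 5.86, Slc17a6 by 2.93, Chst11 by 3.18, Rgs2, a regulator of G protein signalling, by 2.56, and Vdr, the vitamin D receptor, by 2.52. Cd3g went from 176 and 152 CPM to 332 and 284 CPM early (0.91, adjusted p = 0.00432). Rgs2 (1.72), Vdr (1.68), Cd3g (0.90) and Chst11 were called higher late as well, and each lost that call when any 1 of the 4 late libraries was left out, with adjusted p from 0.0618 to 0.315. The largest early falls were taken among called genes with at least 5 RPKM in the higher group and groups that do not overlap. They included Adm, the peptide adrenomedullin (-5.86), Acp5, an acid phosphatase (-4.74), Ppp1r3b, a glycogen regulator (-4.23), Kremen2 (-4.02) and Hdac7, a histone deacetylase (-2.56). Each of these was also lower on log2(RPKM + 1). Ppp1r3b and Hdac7 also had a promoter peak shared with Bcl11b. Mki67, the proliferation marker, was at 2618 and 2778 CPM in early WT and 1324 and 1447 CPM in early KO (-0.96), which turned to 0.18 on log2(RPKM + 1), and at 3181 and 3012 CPM in late WT and 1539 and 1621 CPM in late KO (-0.97, adjusted p = 0.00681). The late call of Mki67 was lost without late WT replicate 1 (0.0791), late KO replicate 1 (0.0994) or late KO replicate 2 (0.0638). In the cell cycle list 9 of 40 genes fell and none rose late, with a median of -0.73.

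Il5 rose in early Bcl11b KO, from 0.419 and 9.43 CPM to 29.4 and 57.0 CPM (3.13, adjusted p = 0.00771), a call not kept when the late libraries were left out of the model (0.0827), and 8 of 26 genes of the Th2 list rose and 1 fell. None of the Th2 genes with these promoters was called late. There, Il5 was at 370 and 321 CPM in WT and 1280 and 987 CPM in KO (1.72, adjusted p = 0.122), Il4 had a log2 fold change of 1.15 (adjusted p = 0.0767), and Il1rl1 was at 1416 and 1398 CPM in WT and 822 and 937 CPM in KO (-0.68, adjusted p = 0.637). Both KO libraries lay above both WT libraries in Il5 and under them in Il1rl1, but neither difference passed the test. With 2 libraries a group, that order alone is not read as a change. Of the whole Th2 list 4 of 26 rose and none fell late. In the late KO libraries summed B cell markers were 6.85 to 8.87 RPKM, against 1.75 to 2.01 RPKM in late WT, and macrophage and dendritic cell markers 14.8 to 15.9 RPKM against 5.48 to 7.38 RPKM, with 2 of 3 and 1 of 5 tested markers called higher. In the early stage B cell markers were 10.3 to 14.8 RPKM in WT and 26.6 to 35.1 RPKM in KO. On that scale summed T cell markers were higher in early KO as well, 1040 and 1060 RPKM against 292 and 404 RPKM. None of the 3 B cell markers tested early was called, with a median log2 fold change of 0.19 in edgeR. Summed mast cell and basophil markers were 1.35 to 2.00 RPKM in early WT and 12.4 RPKM in both early KO libraries. Of this sum Cpa3 gave 12.2 to 12.3 RPKM in early KO, against 0.143 to 0.397 RPKM in early WT. The rest of the list did not rise. Cma1 was at 0.502 to 0.541 RPKM in early WT and 0.0434 to 0.0766 RPKM in early KO, and Kit was lower as well. Mcpt8, Mcpt4, Fcer1a, Ms4a2 and Tpsb2 were at 0 in both early KO libraries. The 1 such marker tested was called higher. The part of B cells, macrophages, dendritic cells, mast cells and basophils in the rises was not tested.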

How the data were processed

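Each RNA library had a table of RefSeq transcripts with the authors' deposited raw read counts and the authors' deposited RPKM (reads scaled to transcript length and library total). The peak lists hold, per the file headers, the number of reads, the fold enrichment ratio, a score that is -10 log10 p and a false discovery rate in percent (antibodies only). The peak score, fold ratio and percent are the authors' values and rank or describe peaks within a list only. Without roles, mm10, MACS 1.4.2, Novoalign, Bowtie, TopHat2 2.0.13 and CASAVA 2.18 are listed per the submitters' processing notes. The control used in peak calling, the strand setting and the treatment of reads with several hits were not found in the sources used here. Peaks were assigned to the gene that the authors' lists give as closest.

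Each gene was represented by its most-read transcript (22878 genes of 29257 transcript rows). Genes reaching 1 RPKM in 2 or more libraries of an experiment were tested with edgeR 4.0.16 (TMM, quasi-likelihood F test, 4 groups of 2 libraries, unpaired) in R 4.3.3, with p-values adjusted by Benjamini-Hochberg over every tested gene and a threshold of 0.05, and CPM are TMM-scaled. Log2 fold changes are KO over WT, with SE. The test was checked on simulated counts with 200 genes changed. Ratios with 1 to 3 reads in a group have exact 95% intervals, which cover counting error only. Alternatives used DESeq2 1.42.0, limma 3.58.1 with a pseudocount of 1 or 0.1 on log2 RPKM, other filters, other peak limits and libraries left out. Subtracting the receptor rate, every RefSeq gene within 1000 bp and summed WT libraries were added after the data were seen.

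Promoter windows were taken from RefSeq (GRCm38.p6) where the start lay within 50 bp of the authors' start. The peaks, gene lists and rules were chosen with earlier results of these data known. The named genes are the 12 peaks of largest fold and 6 of most reads, the 2 peaks on each side of the limit, the 8 largest rises and 8 largest falls per comparison among called genes with at least 5 RPKM and groups that do not overlap, the 6 smallest p for the stage difference, and up to 4 genes per list. The genes of highest level were named after their values were seen. Promoters on chromosome 18 (35 peaks) have no sequence printed. Some named genes are not reported here.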

Additional observations from a re-analysis of the deposited data

Results flagged for a closer look

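The effect of Gata3 loss differed between the early and the late stage at 33 genes with a GATA3 promoter peak without Bcl11b that the report or its rule names, by edgeR's test of the difference (late minus early log2 fold change) at an adjusted p under 0.05. The early and late WT libraries of that experiment were nearly the same, so the differences largely compare late with early KO libraries. Genes that fell in early KO and were less low or higher late gave Inhba 6.68, Stra6 6.55, Tpbg 6.30, Slc17a6 5.69, Il4 5.56, Bcam 5.33, Il21 5.19, Ifitm6 4.91, Olr1 4.68, Arg1 3.21, Il1rl1 2.79 and Icos 1.36. The same held for Myb (1.41), Rplp1 (0.93), Hdac7 (0.86), Foxo1 (0.84) and Rps4x (0.61). The other positive differences, at genes not called in early KO, were 2.21 for Vdr, 1.67 for Rgs2 and 0.54 for Zbtb7a.

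Of the 3 Th1 and cytotoxic genes, Cd244 (-6.90) and Ccl5 (-4.19) were less raised or not raised late, and Il12rb2 had no called difference. Ifi203 gave -4.68, Ms4a4b -4.30, Lax1 -3.42, Tnfsf4 -3.25, Atp8b4 -3.17, P2ry14 -3.00, Ccrl2 -2.44 and Ctsd -1.31. Smaller negative differences were -0.91 for Ikzf1, -0.88 for Bub1 and -0.81 for Tcf12. Of these 33 calls, 19 were kept in every alternative run and 14 were lost in at least 1.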

How the results depend on the processing

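Of 1224 peaks, 629 had a score of at least 100 and 606 lay within 500 bp of a start. With peaks of a score of at least 100 only, the called genes numbered 184 (44.3% of 415 tested) and 101 (24.3%) in early and late Gata3 KO, 114 (27.3% of 417) and 14 (3.36%) in early and late Bcl11b KO, and 73 (17.6%) for the stage difference, so the counts fell with fewer genes tested while each share was above that of all 1224 peaks. The words AGATAA or TGATAA alone stood in 35.6% of covered windows, against 46.8% for all 4 words. Leaving out 1 library at a time gave 212 (without early KO replicate 2) to 350 calls in early Gata3 KO, 110 (without late WT replicate 2) to 169 in late Gata3 KO, 151 to 230 in early Bcl11b KO, 4 (without late WT replicate 1) to 47 (without early WT replicate 1) in late Bcl11b KO, and 73 (without early KO replicate 2) to 141 for the stage difference. In early Bcl11b KO, limma gave 530 calls (506 higher, 24 lower) on log2(RPKM + 1), which were 62.6%, with 63.4% of all genes. On log2(RPKM + 0.1) it gave 542 (517 higher, 25 lower), 64.1%, with 64% of all genes. The median of all genes was 0.86 on the former and 1.14 on the latter, so 95.5% of the calls were higher on the former against 52.4% in edgeR. Directions turned there for Bcl11b (0.05 and 0.06), Mki67 (0.18 and 0.18), Cenpe (0.32 and 0.35) and Foxo1 (0.55 and 0.58). A fit of only the 4 libraries compared gave 110 calls in early Bcl11b KO (14.6%, with 10.8% of all genes) and 138 in late Bcl11b KO (17.2%, with 15.5%). Of the late calls 60.9% were higher, against 82.6% in the fit of 8 libraries. Late Bcl11b KO gave 56 calls with DESeq2 (6.62%, with 5.4% of all genes), of which 66.1% were higher. It gave 15 without a filter (1.35%, with 0.67%), 8 on log2(RPKM + 0.1) (0.946%, with 0.819%) and 14 after subtracting the receptor rate (1.65%, with 1.39%). On log2(RPKM + 1) 61.9% of its calls were higher. The stage difference gave 198 calls without a filter (18.4%, with 12.8% of all genes) and 242 with summed WT libraries (29.1%, with 24%). On log2(RPKM + 1) 52.6% of its calls were positive, against 62.8% in edgeR. The labels give WT and KO the same replicate numbers without a shared source. With the number as a replicate block the calls were 414 (49.7%, with 39.9% of all genes) and 263 (31.6%, with 23.7%) in early and late Gata3 KO, 190 (22.5%, with 18.7%) and 17 (2.01%, with 1.59%) in early and late Bcl11b KO, and 220 (26.4%, with 22.5%) for the stage difference. Deviations of same-numbered WT and KO libraries correlated at 0.12 and 0.296 in early and late Gata3, and at -0.0287 and 0.258 in early and late Bcl11b. Of the named genes, 45 of 56 calls in early Gata3 KO, 21 of 38 late, 25 of 45 in early Bcl11b KO and 4 of 15 late were kept in every alternative run. With 1 library per antibody, peaks of 8 to 15 reads carry the counting error of so few reads.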
